A study of Mus musculus with 3 samples.

Results

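Clusters D and E hold most of the germ cells that were captured from the neonatal testis of mice homozygous for the Y15S allele of Cdk2, and they are compared here within that 1 library. The authors assigned each germ cell to a lettered cluster and labelled each barcode by library. The cells described are those of the Cdk2-Y15S library in cluster D, 37 cells, and in cluster E, 21 cells. They make up 51.4% and 29.2% of the 72 germ cells of the library, 58 of the 141 cells of the deposited germ cell table, which holds Cdk2-WT and Cdk2-Y15S cells and none of Cdk2-HET, and 58 of the 14422 cells of the series.

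The series profiled testes of 3 genotypes as single cells, with 1 library each: Cdk2-WT (Cdk2 +/+), Cdk2-HET (Cdk2 +/YS) and Cdk2-Y15S (Cdk2 YS/YS). All were untreated postnatal day 3 males from crosses of Cdk2 +/YS animals. Their background mixed B6(Cg)-Tyrc-2J/J with FVB/NJ, and 3.5 days is the age given for the dissection. Cells were dissociated with trypsin, EDTA and DNase I and read with 10x Genomics 3-prime version 2 chemistry. The allele is carried by every cell of the animal, and the sources used here do not say how many animals gave the library. The name Y15S stands for a change of tyrosine 15 of CDK2 to serine, which removes a site whose phosphorylation holds the kinase inactive.

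In the days after birth, male germ cells resume division and give rise to undifferentiated spermatogonia, among which the stem cells lie, and to differentiating spermatogonia. Undifferentiated cells depend on GDNF from Sertoli cells, which is sensed through the receptor tyrosine kinase RET and its co-receptor GFRA1 and sustains genes such as Etv5, Bcl6b and Lhx1. Differentiation is set off by retinoic acid, which induces Stra8 and is followed by the receptor Kit. UCHL1 is a ubiquitin hydrolase that is abundant in spermatogonia.

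Each cluster was a single group of cells from a single library, and the clusters themselves were made from the expression of these cells. Differences between D and E are therefore given as a description, with no test and no p-value. For each gene the unique molecular identifiers (UMIs, 1 per captured transcript) were summed over the cells of a cluster and expressed as CPM, the usual scale of UMIs relative to all UMIs of the cluster. Log2 ratios of E over D had 0.5 UMI added to each sum. Brackets hold exact 95% Poisson intervals of a CPM value or exact Clopper-Pearson intervals of a share of cells. For a log2 ratio they hold conditional exact binomial intervals, computed without the added 0.5 UMI. All of these cover counting error only, not the variation between animals. Intervals of CPM and of log2 ratios also leave out the variation between the cells of a cluster.

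The promoters of 3 genes are shown beside the values that follow: Stra8, the retinoic acid-induced gene, Lhx1, with the lowest ratio of E over D of all measured genes, and Lmo1, with the highest ratio among genes with at least 100 UMIs in both clusters together. Each sequence is the 250 bases before the gene's RefSeq start on build GRCm38.p6, written on the strand of the gene: Stra8 (chr6:34920698-34920947, plus strand), Lmo1 (chr7:109175208-109175457, minus strand) and Lhx1 (chr11:84525535-84525784, minus strand). The GENCODE start of Stra8, 34920163, lies upstream of its window, so by that annotation the window is inside the gene. For Lmo1, RefSeq lists 2 starts, and the one at the GENCODE gene start was taken. Capitals mark matches to AGGTCA, an element bound by nuclear receptors that include the retinoic acid receptors, or to the E-box CANNTG.
Stra8: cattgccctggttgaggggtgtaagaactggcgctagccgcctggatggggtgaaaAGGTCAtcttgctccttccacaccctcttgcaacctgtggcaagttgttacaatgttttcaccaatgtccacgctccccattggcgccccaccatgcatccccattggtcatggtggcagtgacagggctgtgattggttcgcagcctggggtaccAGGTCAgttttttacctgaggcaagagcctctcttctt
Lmo1: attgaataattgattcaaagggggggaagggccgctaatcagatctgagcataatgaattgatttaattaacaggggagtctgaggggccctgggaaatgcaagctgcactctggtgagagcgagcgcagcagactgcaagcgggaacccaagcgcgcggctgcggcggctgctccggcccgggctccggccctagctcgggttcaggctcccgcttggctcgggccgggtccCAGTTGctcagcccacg
Lhx1: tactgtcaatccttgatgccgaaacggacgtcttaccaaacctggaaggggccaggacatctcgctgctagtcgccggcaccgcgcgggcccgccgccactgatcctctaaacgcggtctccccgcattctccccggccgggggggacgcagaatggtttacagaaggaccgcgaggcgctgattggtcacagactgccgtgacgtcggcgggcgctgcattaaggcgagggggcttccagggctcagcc
The Stra8 window held 2 matches to AGGTCA, searched on both strands. At least 1 match was present in 14.0% of 32851 RefSeq promoters of the same length, and 2 or more in 1.36%. The Lmo1 window held 1 E-box, an element found in 66.2% of promoters. The Lhx1 window held neither, and none of the 3 windows held the GC box GGGCGG (32.7% of promoters) or the cyclic AMP response element TGACGTCA (1.55%). A match describes the letters of the window and not a bound site. For Ret no sequence is printed.

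Both clusters carried the germ cell genes that the label calls for. Ddx4, the RNA helicase of germ cells, and Dazl and Mael, which encode germ cell RNA-binding and piRNA pathway proteins, each had a UMI in all 37 D and all 21 E cells. Of the 10 genes of a germ cell identity list, 9 had at least 40 UMIs in D and E together, the minimum used for every count below. The median log2 ratio of these 9 was -0.07, with 3 above 0 and 6 below. Dazl stood at 852 CPM in D and 717 in E, and Mael at 518 and 499.9.

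Depth and mitochondrial content differed between the clusters. D cells held between 11154 and 23527 UMIs with a median of 16768, and E cells between 18705 and 34706 with a median of 23755. Thus 26 D cells were shallower than every E cell, and 13 E cells were deeper than every D cell. The range that both clusters cover held 11 D and 8 E cells, with median depths of 20566 and 20537 UMIs. Mitochondrial transcripts made up a median of 11.1% of the UMIs of D cells (0.582% to 14.1%) and 8.63% of E cells (6.35% to 15.6%). More than 10% was seen in 26 D and 3 E cells, and 2 D cells were under 2%. The summed UMIs of the germ cell table were 622073 in D and 512142 in E. The series repeats 87 barcodes among its libraries, and 0 of these belonged to a D or E cell.

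**Figure D1:**
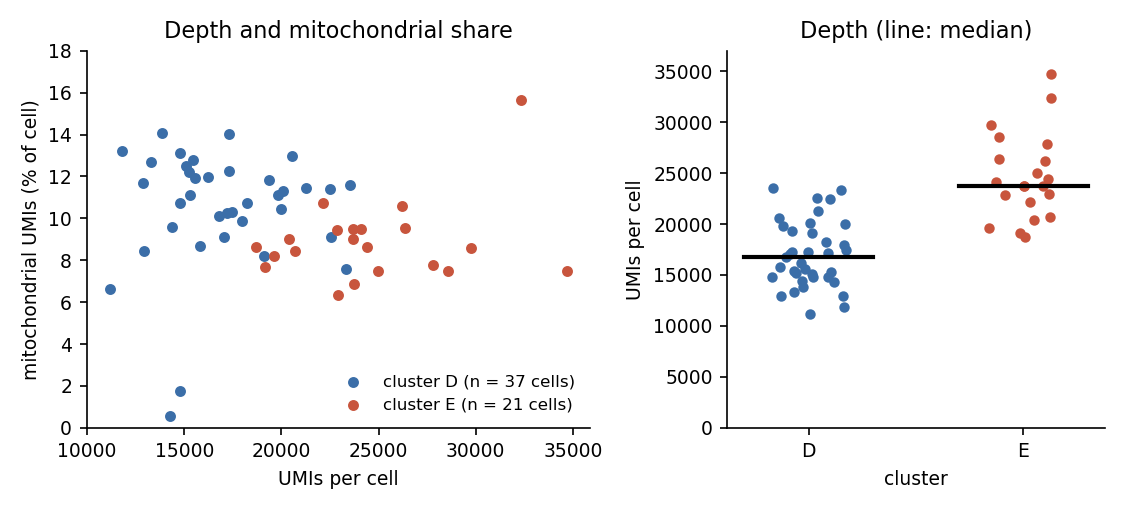
Left, percent of a cell's UMIs that are mitochondrial against UMIs per cell, and right, UMIs per cell by cluster with the median as a line; each point is 1 cell of the Cdk2-Y15S library (37 in D, blue, and 21 in E, red). The medians were 16768 and 23755 UMIs, 26 of the 37 D cells lie above 10% mitochondrial UMIs and 18 of the 21 E cells at or below it.

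Across all genes the clusters were close. The median log2 ratio of E over D was 0.01 over the 4536 genes with at least 40 UMIs, and the middle of the distribution ran from -0.23 to 0.22 between the quartiles. Of these genes 51.1% were above 0 and 48.9% below. A ratio of at least 2-fold was reached by 18 genes higher in E (0.397% of those measured) and 60 genes lower in E (1.32%). The lowest of all 4536 ratios was that of Lhx1. Cells of the same library without germ cell UMIs, 4198 in number, had a higher level than D for 18 of the 60 genes lower in E and a higher level than E for 4 of the 18 genes higher in E. Over all measured genes the corresponding shares were 27.6% and 28.2%.

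**Figure D2:**
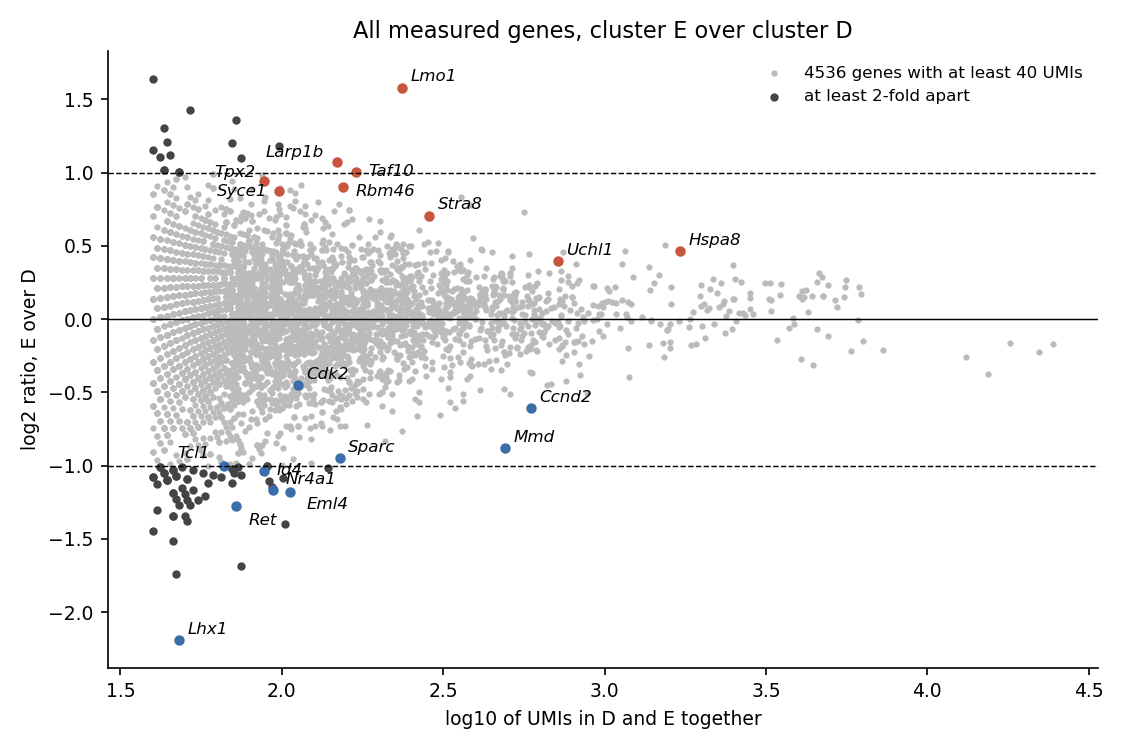
Log2 ratio of cluster E over cluster D against the log10 of the UMIs of a gene in both clusters together, for the 4536 genes with at least 40 UMIs; dashed lines mark 2-fold and dark points the 78 genes beyond them. Lmo1 stands apart at the top among well counted genes and Lhx1 at the bottom, while Stra8 and Uchl1 lie above 0 and inside the lines.

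Lhx1, a LIM homeobox transcription factor that GDNF induces in cultured spermatogonial stem cells, differed most. It lies on chromosome 11 (84518284 to 84525535, minus strand, GRCm38, ENSMUSG00000018698). The 37 D cells held 41 UMIs, 65.9 CPM (47.3 to 89.4), and the 21 E cells held 7 UMIs, 13.7 CPM (5.50 to 28.2), a log2 ratio of -2.19 (-3.67 to -1.10). Single D cells ran from 0 through a median of 44.9 to 380 CPM, and E cells from 0 through a median of 0 to 87.2 CPM. The clusters overlapped at the bottom, where 17 D and 17 E cells had no Lhx1 UMI. With every cell thinned to 10000 UMIs, Lhx1 was found in 16 of 37 D cells and in 0 of 21 E cells, with 28 and 0 UMIs. The thinned D level was 5.30-fold the level that 3 UMIs would give in E. Thinning was a single random draw and this value is no lower bound, since all UMIs gave a 4.56-fold difference. The upper limit of the thinned log2 ratio was -2.01. Among cells of the shared range of depth the counts were 16 UMIs in D and 0 in E. There D stood 3.84-fold above the same kind of floor, and the upper limit of the log2 ratio was -1.47. No Lhx1 UMI was seen in 1710 Sertoli marker cells of the library, cells in which 3 or more of 6 Sertoli genes were detected and Ddx4, Dazl and Mael were not.

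Ret, the receptor that carries the GDNF signal, was lower in E as well. The gene spans 118151745 to 118197718 on the minus strand of chromosome 6 (ENSMUSG00000030110). It stood at 86.8 CPM (65.2 to 113) in D, from 54 UMIs, and at 35.1 CPM (20.8 to 55.5) in E, from 18 UMIs, a log2 ratio of -1.28 (-2.16 to -0.51). D cells ranged from 0 through a median of 73.1 to 211 CPM, and E cells from 0 through 34.0 to 145 CPM, so that the clusters overlapped and the highest cells were those of D. A Ret UMI was found in 28 of 37 D cells and 11 of 21 E cells, and after thinning in 20 and 5. Within the shared range of depth the ratio was -2.21, from 22 and 3 UMIs. Among cells with at most 10% mitochondrial UMIs, 11 in D and 18 in E, it was -0.57 (-1.70 to 0.69). The level in cells without germ UMIs was 0.118 CPM.

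Stra8, the retinoic acid-induced gene whose promoter is shown first above, went the other way. It lies on chromosome 6 (34920163 to 34939344, plus strand, ENSMUSG00000029848). D cells held 122 UMIs, 196 CPM (163 to 234), and E cells 164 UMIs, 320 CPM (273 to 373), a log2 ratio of 0.71 (0.36 to 1.06), short of 2-fold. Single D cells ran from 0 through a median of 125 to 834 CPM and E cells from 0 through 273 to 925 CPM. The ranges thus overlapped almost wholly, and cells without a Stra8 UMI were present in both. At least 1 UMI was found in 23 of 37 D cells (62.2%, 44.8 to 77.5) and 17 of 21 E cells (81.0%, 58.1 to 94.6), and after thinning in 20 and 14. Only 1 of the 1710 Sertoli marker cells, at a median depth of 6248 UMIs, had a Stra8 UMI.

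The size of the Stra8 difference moved with mitochondrial content and with depth. Among cells with at most 10% mitochondrial UMIs, Stra8 was 309 CPM in 11 D cells and 354 CPM in 18 E cells, a log2 ratio of 0.19 (-0.25 to 0.67). Above 10% it was 149.8 CPM in 26 D cells and 138 CPM in 3 E cells, a ratio of -0.07 (-1.19 to 0.81). Stra8 was thus higher in the class with less mitochondrial RNA in D, and also in E, where the other class rests on 3 cells and 11 UMIs. Within each class D and E lay within counting error of each other, which says little above 10%, given those 3 E cells. The 2 D cells under 2% mitochondrial UMIs had 423 and 821 CPM of Stra8 and no UMI of Ret, Lhx1 or Id4, and without them the ratio was 0.87. In the shared range of depth, Stra8 stood at 131 CPM in 11 D cells and 412 CPM in 8 E cells, a ratio of 1.64 (1.02 to 2.33). The part of mitochondrial content or depth in the Stra8 difference was not tested.

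Uchl1 was present in every cell of both clusters. It lies on chromosome 5 (66676091 to 66687234, plus strand, ENSMUSG00000029223). Its level was 553 CPM (496 to 615) in D and 728 CPM (656 to 806) in E, a log2 ratio of 0.40 (0.18 to 0.61). D cells ran from 131 through a median of 556 to 1171 CPM and E cells from 345 through 727 to 1571 CPM, again with broad overlap. The ratio was 0.32 (0.01 to 0.64) among cells with at most 10% mitochondrial UMIs, -0.20 (-0.77 to 0.29) above 10%, where E had 3 cells, and 0.52 (0.15 to 0.90) in the shared range of depth. In Sertoli marker cells the level was 51.1 CPM, far under that of either cluster.

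**Figure D3:**
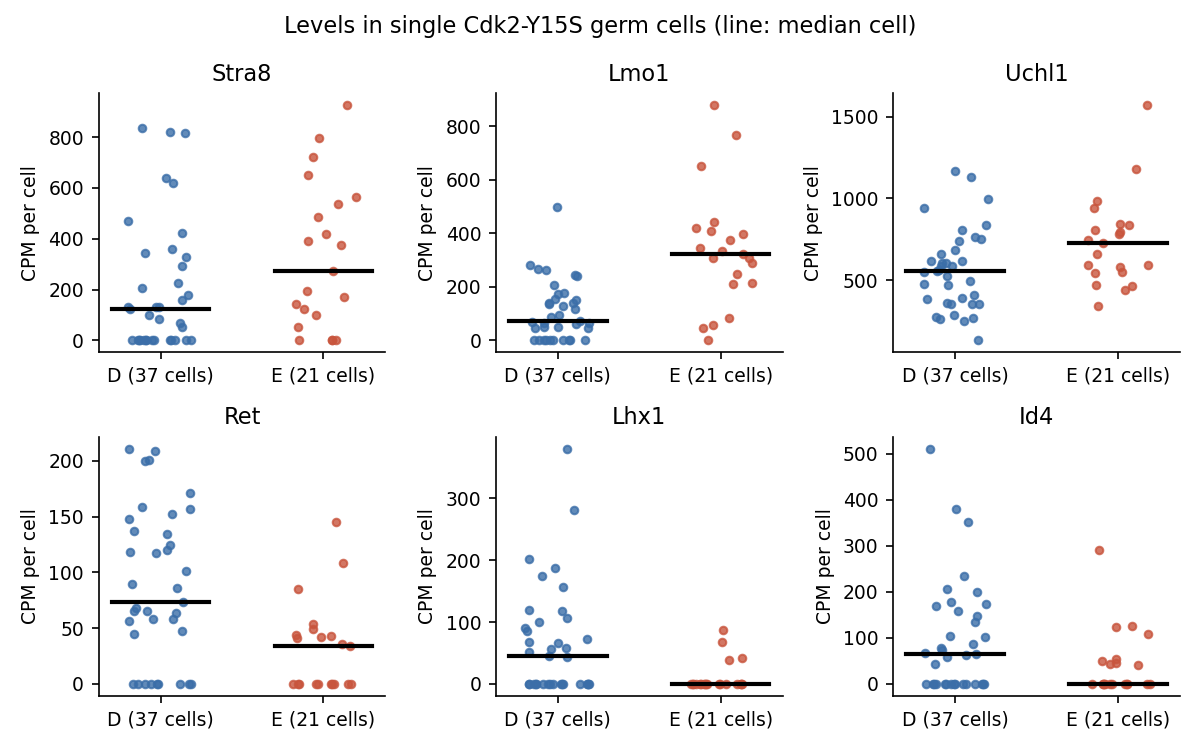
CPM of 6 genes in single cells of the Cdk2-Y15S library, by cluster (37 cells in D, 21 in E), each point 1 cell and the line the median cell. Stra8, Lmo1 and Uchl1 have higher medians in E, Ret, Lhx1 and Id4 higher medians in D, and the clusters overlap for all 6.

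Cells with transcripts of both programmes were found. After thinning, Stra8 and Ret were detected together in 9 of 37 D cells and 2 of 21 E cells. Stra8 and Lhx1 were detected together in 6 D cells and 0 E cells. Stra8 was detected without Ret in 11 D and 12 E cells, and Ret without Stra8 in 11 D and 3 E cells. With all UMIs, where E cells were deeper, Stra8 and Ret were detected together in 15 of 37 D and 9 of 21 E cells. For Stra8 and Lhx1 these counts were 9 D and 3 E cells. A gene that was not detected in a cell at 10000 UMIs may still be expressed there, so these counts describe detection only.

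Beside the other clusters of the germ cell table, D and E had the highest Stra8 and the lowest Ret levels, with intervals of D that overlapped those of Cdk2-Y15S clusters B and C and Cdk2-WT cluster C for Ret and of Cdk2-Y15S cluster C for Stra8. Stra8 was 25.7 CPM (14.4 to 42.4) in the 36 Cdk2-WT cells of cluster A and 27.6 CPM (15.5 to 45.6) in the 28 Cdk2-WT cells of cluster B. In the same library as D and E it was 6.83 CPM in 6 cells of cluster B and 179 CPM (108 to 280) in 8 cells of cluster C. Only 3 of these 8 cells held its 19 UMIs, 13 of them in 1 cell, and the median cell was at 0 CPM. Ret was 249 and 160 CPM in the Cdk2-WT clusters A and B and 109 and 113 CPM in the Cdk2-Y15S clusters B and C. Lhx1 was 115 and 125 CPM in the former and 47.8 and 18.9 CPM in the latter. The 5 Cdk2-WT cells of cluster C had 28.8 CPM of Stra8, 158 CPM of Ret and 130 CPM of Lhx1. For both genes E was the lowest of these groups, though the interval of Lhx1 in E overlapped those of clusters B (19.2 to 98.5) and C (2.29 to 68.2) of the same library. With 1 library a genotype, the genotype and the library cannot be told apart.

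The list of undifferentiated spermatogonia and stem cell genes was lower in E on balance. Of its 24 members, 12 were measured, 10 of them below 0 and 2 above, with a median log2 ratio of -0.40 against 0.01 for all genes. At least 2-fold lower were Lhx1, Ret, Id4 and Tcl1, which is 4 of 12 measured members, where 1.32% of all measured genes were that much lower. Among cells with at most 10% mitochondrial UMIs, Lhx1 stayed past 2-fold, at -1.95 from 10 and 6 UMIs, and Ret, Id4 and Tcl1 did not. Lhx1 and Ret were markers set for description, and the list was chosen with earlier results of these data known. The share is therefore a description and not a test of the list. The highest members were Gfra1, the GDNF co-receptor, and Zbtb16, the zinc finger repressor PLZF, each from 44 UMIs in D and 41 in E, at 70.7 and 80.1 CPM and a ratio of 0.18 (-0.47 to 0.83). Receptor and co-receptor of GDNF had ratios of opposite sign, but the interval of Gfra1 reached across 0.

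Id4, an inhibitor of basic helix-loop-helix factors that marks stem cell-rich spermatogonia, was 101 CPM (77.8 to 130) in D and 48.8 CPM (31.6 to 72.1) in E, a ratio of -1.04 (-1.78 to -0.36). Single D cells ran from 0 through a median of 65.7 to 511 CPM and E cells from 0 through 0 to 291 CPM. A UMI of Id4 was found in 22 of 37 D and 9 of 21 E cells, and after thinning in 17 and 7. Tcl1, a co-activator of AKT signalling, was 75.6 CPM in D and 37.1 CPM in E, a ratio of -1.004 (-1.88 to -0.23). Of the members between, Etv5 had a ratio of -0.59 (-1.28 to 0.06), Lin28a -0.44, Foxo1 -0.34 and Sall4 -0.32. The other 12 members were under the minimum or had UMIs in the full matrix only. Among them Bcl6b had 22 UMIs in D and 10 in E, Id2 had 7 and 0, and Sox3 had 5 and 15. With at most 10% mitochondrial UMIs only 4 members were measured, and their median was -0.16. Under the minimum there, Id4 had a ratio of -0.94 (-1.95 to 0.11) from 16 and 20 UMIs. Tcl1 had -0.65 (-1.80 to 0.61) from 11 and 17 UMIs. After thinning the ratios were -1.001 (-2.31 to 0.04) for Id4 and -0.42 (-1.56 to 0.56) for Tcl1. In the shared range of depth they were -2.50 and -0.93.

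Genes of the GDNF and FGF response, a list that shares Lhx1, Etv5 and Bcl6b with the one before, were also mostly below 0. Of 18 members 9 were measured, 7 below 0 and 2 above, with a median of -0.35. Lhx1, already counted above, was the one at least 2-fold lower. Over all measured genes 48.9% were below 0 and 1.32% at least 2-fold lower. Nefm, a neurofilament subunit, was 85.2 CPM in D and 44.9 CPM in E, a ratio of -0.91 (-1.70 to -0.19) that was 0.71 (-0.63 to 2.58) among cells with at most 10% mitochondrial UMIs, from 5 and 21 UMIs. The ETS factors Etv5 and Etv4 had ratios of -0.59 and -0.35, while Spred1 and Dusp6, which restrain the MAP kinase pathway, had 0.42 (-0.54 to 1.40) and 0.08. Under the minimum, Spry1, another such inhibitor, had 20 UMIs in 15 D cells and 3 UMIs in 3 E cells.

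Genes of differentiating spermatogonia were higher in E on balance, but not all of them. Of 14 members 11 were measured, 8 above 0 and 3 below, with a median of 0.23, and 1 was at least 2-fold higher. Over all measured genes 51.1% were above 0 and 0.397% at least 2-fold higher. The list was chosen with earlier results of these data known and includes Stra8 and Uchl1, already described. Its counts are therefore a description and not a test of the list. Uchl1 did not follow Stra8 across clusters. It stood at 335 and 289 CPM in Cdk2-WT clusters A and B, where Stra8 was 25.7 and 27.6 CPM. The member past 2-fold was Lmo1, which encodes a LIM-only transcriptional co-regulator and lies on chromosome 7 (109138572 to 109175207, minus strand, ENSMUSG00000036111). Its level was 109 CPM (84.9 to 139) in D and 328 CPM (280 to 382) in E, from 68 and 168 UMIs, a ratio of 1.58 (1.17 to 2.01). D cells ran from 0 through a median of 73.1 to 500.3 CPM and E cells from 0 through 324 to 879 CPM. A UMI was found in 27 of 37 D cells and 20 of 21 E cells, and after thinning in 22 and 18. The Lmo1 ratio was 1.67 among cells with at most 10% mitochondrial UMIs, 1.26 above 10%, and 2.59 in the shared range of depth. Of the other groups, cluster C of the same library was at 264 CPM and the Cdk2-WT clusters A and B at 39.5 and 27.6 CPM. Cluster C held 28 Lmo1 UMIs, 11 of them in 1 cell, with a median cell of 94.9 CPM.

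The other members of the differentiating list lay within 2-fold. Sohlh2, a helix-loop-helix factor of early differentiation, had a ratio of 0.66 (-0.17 to 1.51), Crabp1, a cytosolic retinoic acid-binding protein, 0.29 (-0.08 to 0.66), and Dmrt1, a regulator of the entry into meiosis, 0.23 (-0.04 to 0.50). Kit, the receptor of differentiating spermatogonia, stood at 75.6 CPM (55.5 to 100.5) in D and 50.8 CPM (33.2 to 74.4) in E, a ratio of -0.56 (-1.32 to 0.15) that was 0.11 among cells with at most 10% mitochondrial UMIs and 0.11 in the shared range of depth. Stra8 and Kit, which both follow retinoic acid, had ratios of opposite sign over all cells, but the interval of Kit reached across 0. Ccnd2, a D-type cyclin, was 616 CPM (556 to 681) in D and 404 CPM (351 to 463) in E, a ratio of -0.61 (-0.86 to -0.36). Of the 21 members of the retinoid signalling list 4 were measured, all above 0 with a median of 0.34, Stra8 and Crabp1 among them. Aldh1a1, an enzyme that makes retinoic acid, was more abundant in cells without germ UMIs, at 451 CPM, than in D or E, where it was at 33.8 and 41.0 CPM. The retinoic acid receptors Rara and Rarg and the degrading enzymes Cyp26a1 and Cyp26b1 had 16 or fewer UMIs in either cluster.

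Summed per cell, the undifferentiated list ran from 0 through a median of 1276 to 2326 CPM in D and from 170 through 888 to 1584 CPM in E, and 6 D cells were above the highest E cell. The differentiating list ran from 1566 through 2289 to 4376 CPM in D and from 1890 through 3077 to 4363 CPM in E. On either sum the clusters overlapped, and 17 of 21 E cells were above the D median of the differentiating list and 5 above the D median of the undifferentiated list. The 14 genes of the differentiating list held 1581 UMIs in D and 1519 in E. Of these, Stra8 held 122 and 164, Uchl1 344 and 373, and Lmo1 68 and 168, all with ratios above 0. Of the 11 measured members 3 were below 0, Ccnd2 among them with 383 and 207. The sum without Stra8, Uchl1 and Lmo1 was not computed, so its shift cannot be read as one of the whole list.

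**Figure D4:**
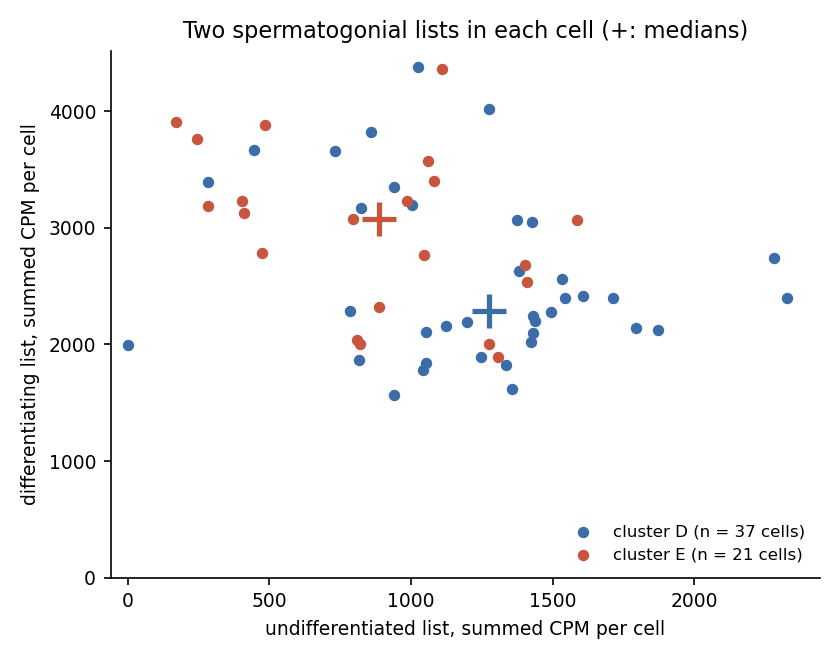
Summed CPM of the differentiating spermatogonia list against that of the undifferentiated list in each cell of D (37, blue) and E (21, red), with crosses at the cluster medians of 1276 and 2289 CPM in D and 888 and 3077 CPM in E. Cells of both clusters are found over most of the plane, and the 6 cells furthest to the right are all of D. The differentiating list includes Stra8, Uchl1 and Lmo1, each higher in E.

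The genes with the highest ratios among well counted genes, those with at least 100 UMIs of which no cell held over 20%, were led by Lmo1. Larp1b, a La-related RNA-binding protein, followed at 86.8 CPM in D and 184 CPM in E, a ratio of 1.07 (0.58 to 1.59), with a UMI in 23 of 37 and 21 of 21 cells. Taf10, a subunit of the TFIID and SAGA complexes, was 103 and 207 CPM, a ratio of 1.00 (0.55 to 1.48). Rbm46, a germ cell RNA-binding protein needed for meiosis, was 98.1 and 184 CPM, a ratio of 0.90 (0.42 to 1.39). Rala, a small GTPase, was 233 and 416 CPM, a ratio of 0.83 (0.52 to 1.15). The remaining 7 were Prpsap1, Mrpl4, Eri3, Krtcap3, Siah1b, Cyth2 and Uck2, with ratios from 0.78 to 0.91.

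At the other end, Eml4, a microtubule-binding protein, was 125 CPM in D and 54.7 CPM in E, a ratio of -1.18 (-1.88 to -0.56). Hbp1, a transcriptional repressor of cell cycle genes, was 117 and 54.7 CPM, a ratio of -1.09 (-1.79 to -0.46). Mmd, a membrane protein of the progestin and adipoQ receptor family, was the best counted, at 548 and 297 CPM and a ratio of -0.88 (-1.17 to -0.61). Mdk, Sparc, Vim and Zfp36l1, with ratios of -1.02, -0.95, -0.81 and -0.997, were more abundant in cells without germ UMIs, at 936, 2446, 2292 and 295 CPM, than in D. The remaining 5, Dgkz, Serp2, Trim6, Gltp and Phf23, had ratios from -0.98 to -0.82 and lower levels in those cells than in D. None of these 24 genes changed sign under the alternatives of the closing section. Among cells above 10% mitochondrial UMIs, 26 in D and only 3 in E, Prpsap1 (-1.93, with 1 UMI in E), Mrpl4 (-0.30), Dgkz (0.05), Sparc (0.06) and Trim6 (0.01) did.

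Markers of somatic cells were low but present in both clusters. Of 14 Sertoli markers 4 were measured, with a median ratio of -0.19, and of 13 interstitial stromal and myoid markers 5 were measured, all below 0 with a median of -0.63. Their summed level per cell ran from 141 through 766 to 1618 CPM in D and from 264 through 628 to 2938 CPM in E. The defining Sertoli genes Amh and Sox9 had 6 and 2 UMIs in D and 8 and 5 in E. Fetal Leydig, endothelial, macrophage and erythroid markers had 13, 16, 33 and 3 UMIs in D and 9, 8, 18 and 1 in E, with no member at the minimum. Without the 5 D cells and 1 E cell highest in Sertoli and stromal markers, the ratio was 0.59 for Stra8, -1.34 for Ret, -2.26 for Lhx1 and 1.54 for Lmo1.

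Cell cycle genes leaned in opposite directions by phase over all cells, but not in the shared range of depth. Of 30 genes of S phase 25 were measured, 21 below 0 and 4 above, with a median of -0.23 and none at 2-fold. Over all measured genes 48.9% were below 0. Slbp, the histone stem-loop binding protein, was 360 CPM in D and 236 CPM in E, a ratio of -0.61 (-0.94 to -0.28), and Mcm5, a subunit of the replicative helicase, 159 and 103 CPM, a ratio of -0.61 (-1.13 to -0.13). The lowest were Cdc45 and Dtl at -0.79 (-1.85 to 0.14) and -0.67 (-1.20 to -0.16), and the highest was Mcm3 at 0.33 (-0.12 to 0.78). The S phase median was -0.10 in the shared range of depth.

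Of 32 genes of G2 and M phase 31 were measured, 21 above 0 and 10 below, with a median of 0.14, where 51.1% of all measured genes were above 0. Tpx2, a spindle assembly factor, was 54.7 CPM in D and 105 CPM in E, a ratio of 0.94 (0.30 to 1.61). Nusap1, a spindle-associated protein, had a ratio of 0.93 (0.02 to 1.92), and Ube2c, the ubiquitin-conjugating enzyme of the anaphase-promoting complex, 0.78 (0.48 to 1.08). The lowest was Anp32e, a histone chaperone, at -0.67 (-1.29 to -0.09). In the shared range of depth the median of this list was -0.05 and the Tpx2 ratio 0.29, so the lean of the list as a whole did not hold at matched depth.

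Cdk2 itself, the mutated gene (chromosome 10, 128697939 to 128705031, minus strand, ENSMUSG00000025358), was 113 CPM (87.7 to 142) in D and 82.0 CPM (59.1 to 111) in E, a ratio of -0.45 (-1.04 to 0.12), and 0.03 in the shared range of depth. Among 30 genes of CDK2, cyclins, inhibitors and regulators, 14 were measured, 7 on each side of 0, with a median of -0.02 and none at 2-fold. Ccnd1 and Ccnd2, the D-type cyclins that drive the exit from G1, were the lowest, and Ccnd1 had 230 CPM in D and 148 CPM in E, a ratio of -0.63 (-1.05 to -0.22). Cdk7, of the CDK-activating kinase, had 0.60 (-0.22 to 1.44) and Cdk1 0.35. Wee1, the kinase that phosphorylates the tyrosine replaced in Y15S, had 21 UMIs in D and 7 in E, and Cdc25c, of the phosphatases that remove this phosphate from CDKs, had 9 and 18. Both were under the minimum.

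Immediate early genes were lower in E on balance. Of 19 immediate early and heat shock genes 11 were measured, 9 below 0, with a median of -0.23, where 48.9% of all measured genes were below 0. At least 2-fold lower were 2 members, against 1.32% of all measured genes. The nuclear receptor gene Nr4a1 was 111 CPM in D and 48.8 CPM in E, a ratio of -1.17 (-1.91 to -0.51), the AP-1 gene Junb 103 and 50.8 CPM, a ratio of -1.003 (-1.74 to -0.34), and Egr1 169 and 102 CPM, a ratio of -0.73 (-1.24 to -0.24). The chaperone gene Hspa8 was the highest, at 1289 and 1777 CPM and a ratio of 0.46 (0.32 to 0.60) that was -0.01 among cells with at most 10% mitochondrial UMIs. Nr4a1 and Junb were more abundant in cells without germ UMIs, at 343 and 1440 CPM.

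Meiotic, piRNA, pluripotency and p53 genes lay around 0. Of 22 meiotic prophase genes 9 were measured with a median of 0.04. Syce1, a central element protein of the synaptonemal complex, was 62.7 CPM (44.6 to 85.7) in D and 115 CPM (87.7 to 149) in E, a ratio of 0.87 (0.27 to 1.50), while Tex12, another such protein, had -0.49. The median was -0.03 for 12 of 22 genes of the piRNA pathway and de novo DNA methylation, from Asz1 at -0.78, which was 0.66 in the shared range of depth, to Tdrkh at 0.45. It was -0.07 for 4 of 15 pluripotency genes, where Pou5f1 stood at 99.7 and 102 CPM, and -0.08 for 10 of 21 p53 targets and apoptosis genes. Of 16 glycolysis genes 8 were measured with a median of 0.10, and the lactate dehydrogenase genes Ldhb and Ldha were the lowest at -1.45 (-2.76 to -0.40) and -0.78 (-1.76 to 0.09). All 12 measured mitochondrially encoded genes of 13 were below 0, with a median of -0.24, and their median was 0.14 among cells with at most 10% mitochondrial UMIs.

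**Figure D5:**
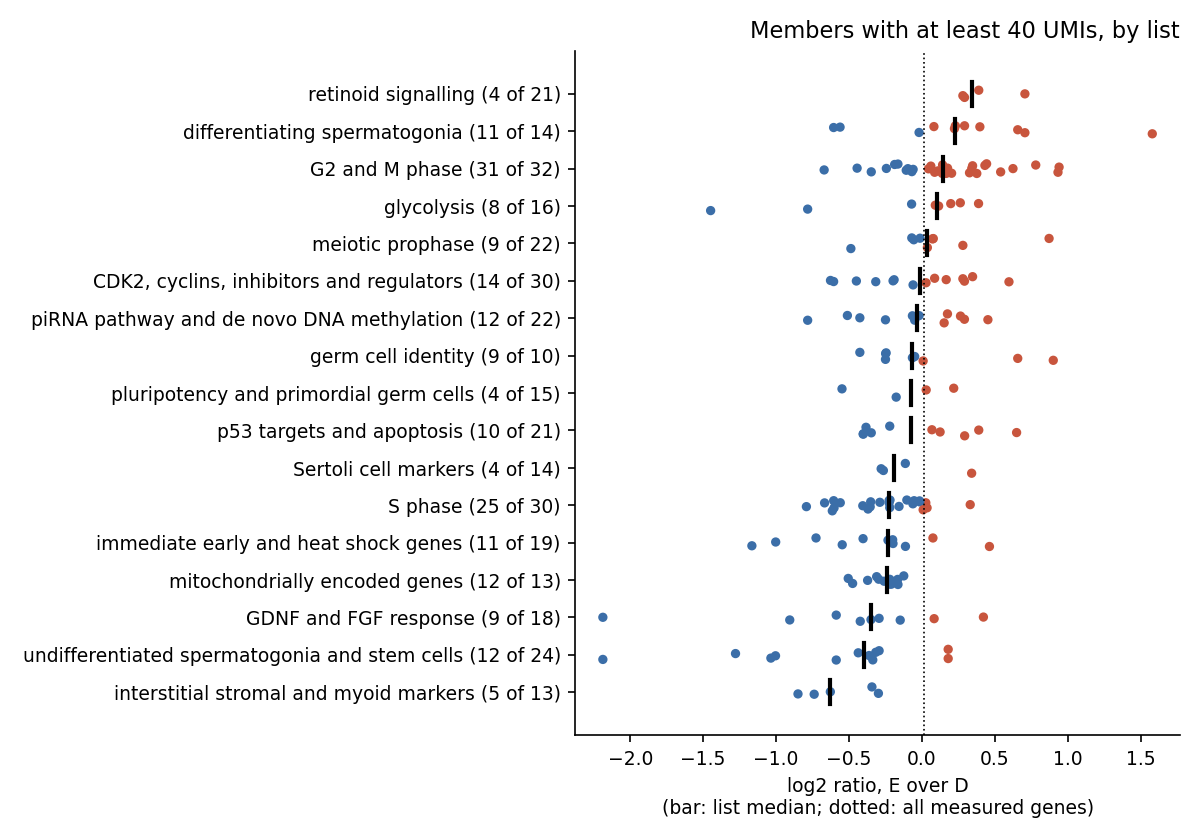
Log2 ratio of E over D for each list member with at least 40 UMIs (points, blue below 0 and red above), with the list median as a bar, the number measured of each list in brackets and the median of all 4536 measured genes, 0.01, as a dotted line. Retinoid signalling (0.34) and differentiating spermatogonia (0.23) lie at the top, and undifferentiated spermatogonia (-0.40) and stromal markers (-0.63) at the bottom.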

How the data were processed

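The deposited germ cell table holds counts, whole UMIs per gene and cell, for 10451 genes in 141 cells, and the authors' mapping gives each cell's cluster and, by barcode suffix, its library. The submitters' processing notes name mm10, Seurat and Cell Ranger 2.1.0. The steps by which the authors picked and clustered the germ cells are not stated in the labels. For 10439 genes the counts equal those of the deposited matrix, and 12 have no unique symbol there. The table holds 99.0% of the UMIs of the D and E cells. Counts were summed per cluster and divided by the cluster's table total. Positions come from GENCODE M21 on GRCm38 and promoters from RefSeq.

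Genes named are Stra8, Uchl1, Ret, Lhx1 and Cdk2, the 12 highest and 12 lowest ratios with at least 100 UMIs of which no cell held over 20%, and the 2 highest and 2 lowest measured members of each of 21 lists. Genes that the rule selects and the text does not name enter the list counts only. Further list members were named after their values were seen, as examples. The members, lists and rule were chosen with earlier results of these data known. Alternatives weighted cells equally, left mitochondrial UMIs out of the denominator, kept cells with at most 10% mitochondrial UMIs, thinned cells to 10000 UMIs, centred the ratios, left out cells highest in somatic markers or the cell with the most UMIs of a gene, and used minimums of 20, 100 or no UMIs. Those restricted to the shared range of depth or to cells with at least 2% mitochondrial UMIs were chosen after seeing the data. No doublet caller was run on these cells. Python 3.11.15, numpy 2.4.6, pandas 2.3.3 and scipy 1.17.1 were used, and the calculation was tested on simulated data. The simulated sums were drawn without variation between cells, so that variation was not checked.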

Additional observations from a re-analysis of the deposited data

How the results depend on the processing

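The 18 genes at least 2-fold higher in E became 43 among cells with at most 10% mitochondrial UMIs, 36 in the shared range of depth, 97 with a minimum of 20 UMIs, 3 with 100 and 547 with none. The 60 genes lower became 38 among cells with at most 10% mitochondrial UMIs, 228 with a minimum of 20 UMIs, 4 with 100 and 820 with none. The lower genes were 76.9% of those apart, against 46.9% among cells with at most 10% mitochondrial UMIs, 66.7% after thinning and 56.6% in the shared range of depth, where fewer cells and genes were measured; with no minimum it was 60.0% and with 100 UMIs 57.1%. Of the 78 genes, 51, 49 and 55 stayed at least 2-fold apart in the same direction in those 3 settings, and 76, 77 and 75 kept their sign.

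Among cells with at most 10% mitochondrial UMIs the list medians were -0.16 for undifferentiated, -0.19 for meiotic and 0.14 for mitochondrially encoded genes, and the Stra8 ratio was 0.19. Without the cells highest in somatic markers the medians were -0.56 for Sertoli and -0.29 for stromal markers. In the shared range of depth the ratios were 1.64 for Stra8, -2.21 for Ret and -4.57 for Lhx1, and after thinning -5.02 for Lhx1; both Lhx1 values rest on 0 UMIs in E and depend on the 0.5 UMI added. The cause of these shifts was not tested. Of 89 named genes, 19 changed sign among cells with at most 10% mitochondrial UMIs, 9 in the shared range of depth and 8 after thinning. Weighting cells equally, centring and leaving mitochondrial UMIs out of the denominator changed no sign among them. No paired analysis was possible because the series has 1 library a genotype and D and E come from the same one. With 7 Lhx1 and 18 Ret UMIs in E, the counts limit the precision of these ratios.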
